A study of Rattus norvegicus with 6 samples.

Results

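Forkhead transcription factors that have been linked to GLI proteins were followed in rat RK3E cells transformed by GLI1 and in the parental cells. The 8 genes listed were Foxf1, Foxd1, Foxd2, Foxc2, Foxl1, Foxm1, Foxo1 and Foxo3, and every probe set annotated to exactly 1 of these symbols was taken. This gave 14 probe sets for 6 of the 8 genes, out of 31099 probe sets and 14217 named genes on the array. Foxd1 and Foxl1 had no probe set annotated to their symbol alone and were not analysed here. Of the 14 probe sets, 7 had a mean signal over the 6 arrays above the filter and were tested, and each of the 6 measured genes had at least 1 of them.

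Forkhead factors share a winged-helix domain that binds DNA, and the letter after the name gives the subfamily. GLI proteins are zinc finger factors that carry Hedgehog signals to the genome, and Foxf1 and Foxl1, in the mesenchyme of the gut, lung and other organs, are known Hedgehog-responsive genes. Foxd1 and Foxd2 are used in kidney stroma and other mesenchyme, and Foxc2 in lymphatic vessels and mesenchyme. Foxm1 drives genes of mitosis in dividing cells. Foxo1 and Foxo3 are held in the cytoplasm when the kinase AKT phosphorylates them, and in the nucleus they switch on genes of cell cycle arrest, stress resistance and fasting metabolism.

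RK3E is a kidney epithelial line of the rat that was immortalised with the adenovirus gene E1A, which all 6 samples share. The GLI1-transformed group had 4 arrays. By the labels, an expression construct for GLI1 was introduced with Lipofectamine 2000 and single foci of transformed cells were picked and kept as lines; 1 array is of clone I, 2 are of clone II and 1 has no clone named. The parental group had 2 arrays, and both groups grew in DMEM with 10% serum. The design text asks how the expression profile of the transformed cells differs from that of the control cells. Clones are few, and the labels do not say how cultures were kept apart, so a p-value here speaks of the spread between arrays, which may in part be technical.

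The values are MAS5 signals, an Affymetrix summary of the probes of a set on a linear scale, and were compared as log2. A gene with several probe sets is represented by the 1 of highest mean. "Rose" and "fell" mean an adjusted p under 0.05 in limma with Benjamini-Hochberg adjustment over the 18625 probe sets tested. Array medians ran from 568 to 696. The ratio of 3' to 5' GAPDH signal, a measure of RNA integrity, was 7.52 in replicate 1 of clone II and 3.66 in parental replicate 1, against 1.39 to 2.09 on the other 4 arrays. Gli1 itself had log2 signals of 13.15 on the array with no clone named, 11.71 in clone I, 11.77 and 12.17 in clone II, and 5.17 and 6.50 in parental cells. The groups were far apart, with a log2 difference of 6.36 (SE 0.49, limma adjusted p = 0.000159). Both parental signals lay below the filter of 322, so the gene was tested only through its GLI1 arrays and the size of the difference rests on faint signals: it was 82.4-fold as deposited and 51.9-fold with 32 added, and the log2 difference ran from 5.70 to 7.03 over the other settings. The files do not say whether its probes detect the introduced transcript, the cells' own, or both. Among named genes, 7.8% rose and 7.75% fell. Over probe sets, 1087 rose and 1351 fell, and with each array centred on its median 1454 rose and 944 fell, because centring moved the median difference of all tested probe sets from 0.005 to 0.165.

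Of the 6 forkhead genes measured, Foxf1, Foxd2 and Foxm1 rose, none fell, and Foxc2, Foxo1 and Foxo3 did not pass the test. Among all genes tested, 7.8% rose and 7.75% fell. In 4 of the 6, every GLI1 array lay above both parental arrays, as in 23.4% of all genes tested. Foxc2 is among the 4 by a gap of only 0.06 on the log2 scale. Its parental mean of 8.20 lay below the filter, so it was tested only through its GLI1 arrays. Of all genes tested, 19.8% lay below on every GLI1 array, and 0 of the 6 did. The median log2 difference of the 6 genes was 0.65, beside 0.07 over the 10240 genes tested. The members and the gene lists below were chosen with earlier results of these data known. A count or median set beside that of all genes therefore only describes them. Foxf1 kept its call under each of the 15 other settings of the fit, while Foxd2 and Foxm1 lost theirs when either parental array was left out, which leaves 1 of the 3 called. With 1 parental array left, the spread comes from the GLI1 arrays alone and the parental array is assumed to vary like them. Calls over all probe sets also dropped steeply in such fits, so a lost call there is not particular to a gene or list.

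**Figure D1:**
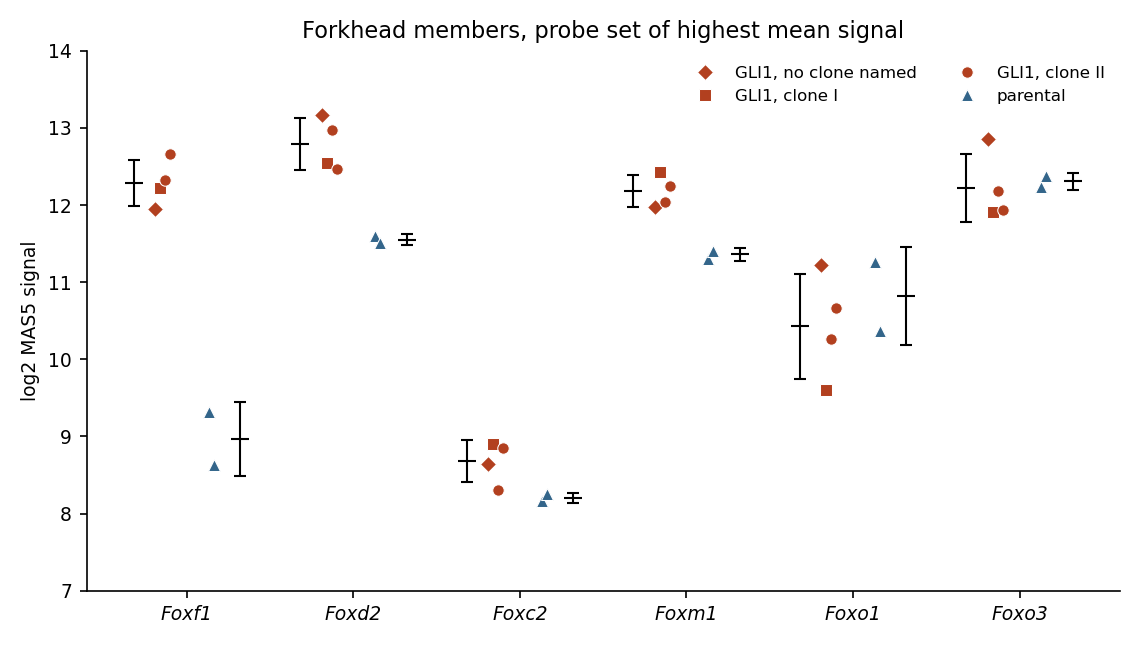
Log2 MAS5 signal of the 6 measured members on each of the 6 arrays, for the probe set of highest mean signal, with the mean and SD of each group as bars (n = 4 GLI1-transformed, n = 2 parental). The groups are apart for Foxf1, Foxd2, Foxm1 and, narrowly, Foxc2, and overlap for Foxo1 and Foxo3; heights should not be compared between genes.

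Foxf1, required in the embryo for the mesenchyme around gut and lung, had the largest difference of the 6. It read 3945 on the GLI1 array of no named clone, 4759 in clone I, 5117 and 6477 in clone II, and 637 and 397 in parental cells. Every GLI1 array stood far above both parental ones, and the GLI1 arrays were close to each other. Mean log2 signals were 12.29 ± 0.30 (SD, n = 4) and 8.97 ± 0.48 (SD, n = 2), a 9.94-fold rise (log2 3.31, SE 0.28, limma adjusted p = 0.000226). The log2 difference lay between 2.97 and 3.65 under the other settings, with a highest adjusted p of 0.00753 in limma.

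The other Foxf1 probe set (1376757_at) was below the filter because its parental signals were near the floor. It read 569 on the array with no clone named, 776 in clone I, 309 and 1245 in clone II, and 8.6 and 19.3 in parental cells. The order of the groups is the same as in the brighter probe set, with wider spread among the GLI1 arrays. Fitted without the filter, its log2 difference was 5.64 (SE 0.73, limma adjusted p = 0.00222), and with 32 added to every signal it was 3.89, a difference that depends on how such faint parental signals are treated.

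In the reference gene table (RefSeq, assembly GRCr8) Foxf1, Foxc2 and Foxl1 lie together on chromosome 19, with Mthfsd, a gene named for a domain of folate enzymes, between Foxf1 and Foxc2. No tested neighbour of Foxf1 passed the test. Mthfsd differed by 0.38 on the log2 scale (limma adjusted p = 0.396), the mitochondrial cytochrome oxidase gene Cox4i1 by 0.17 (0.535) and Emc8, of a membrane protein insertion complex, by 0.39 (0.446). Irf8, a myeloid transcription factor gene, was below the filter, with mean log2 signals of 7.84 and 7.50. Fbxo31, beyond Foxc2 and Foxl1, differed by 0.16 (limma adjusted p = 0.717).

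Foxc2, needed for lymphatic valves and the axial skeleton, was faint. Its brightest probe set read 400 on the array with no clone named, 479 in clone I, 316 and 463 in clone II, and 287 and 303 in parental cells, where the filter stood at 322. Both parental signals were below the filter, so the gene was tested only through its GLI1 arrays. All 4 GLI1 arrays were above both parental arrays, by a gap of 0.06 on the log2 scale between the nearest ones. The log2 difference was 0.47 (SE 0.37, 95% interval -0.37 to 1.31, limma adjusted p = 0.448), so neither no change nor a doubling is outside the interval. Its other probe sets were fainter still and overlapped between groups. One read 16.0 to 236 in GLI1 arrays and 97.6 to 259 in parental ones (1370795_at), the other 31.4 to 236 and 25.9 to 66.3 (1375607_at). Their log2 differences had opposite signs, -0.91 and 1.54, and neither passed in limma without the filter (adjusted p = 0.712 and 0.427).

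A list of genes that work with Foxf1 or Foxc2 in mesenchyme and vessels had 11 of 25 genes bright enough to test. Of these 2 rose, 3 fell and 6 did not pass, beside 7.8% risen and 7.75% fallen among all genes. The median log2 difference was -0.54, beside 0.07 over all genes tested. The filter, on the mean of the 6 arrays, left out some genes whose groups were apart. They include Cxcr4, with mean log2 signals of 9.02 in GLI1 arrays and 6.18 in parental cells. Itgb3, with a parental mean of 9.96 and lower on every GLI1 array, was left out too. Without the filter 3 of the 25 rose and 3 fell. Bmp7, a secreted bone morphogenetic protein, rose by 3.42 on the log2 scale (SE 0.27, limma adjusted p = 0.000168). Dll4, the Notch ligand of arteries, rose by 2.74 (SE 0.51, 0.00929), with a parental mean of 6.88 that lies below the filter. Bmp4, the ligand that Foxf1 is known to maintain in embryonic mesoderm, fell by 1.86 (SE 0.42, 0.0219). Hey1, a target of Notch, fell by 1.60 (SE 0.45, 0.0485), and Itgb1, the integrin beta-1 chain, by 0.85 (SE 0.15, 0.0081). The list thus held called genes in both directions, and Bmp7 alone of these 5 kept its call in all 15 other settings; without parental replicate 1 or parental replicate 2, 0 of the 11 fell.

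Markers of other cell types moved beside these mesenchymal genes. Of 6 fibroblast markers tested 4 fell, Col1a1, Col1a2, Col3a1 and Ogn, where 7.75% of all genes fell. Fbln1 (log2 difference 0.13, limma adjusted p = 0.887) and Pdgfra (-0.06, 0.95) did not pass. The summed signal of the 9 fibroblast markers on the array was 8293 to 17573 in GLI1 arrays and 171899 to 191481 in parental ones. The collagens dominate the parental sum, with mean log2 signals of 15.16 for Col1a1, 15.78 for Col1a2 and 16.02 for Col3a1. Ogn lost its call in 8 of 15 other settings, either parental array left out among them, and its 2 other tested probe sets did not pass in limma (adjusted p = 0.067 and 0.131). The parental cells, labelled as an epithelial line, thus gave strong collagen signals. Epithelial markers were mostly faint: 2 of 10 were tested, neither passed with all GLI1 arrays together, Cdh1 had mean log2 signals of 7.06 and 6.90, and the summed signal was 1692 to 9238 in GLI1 arrays and 2440 to 2692 in parental ones. Both tested ones, Krt8 and Epcam, were called in the GLI1 arrays other than clone II against parental cells. Of 7 endothelial markers only Esam was tested, at a difference of -0.28, with Kdr, Tek and Pecam1 below the filter and summed signals of 922 to 2037 and 1303 to 1666. Of 6 immune markers 2 were tested and Cd14 fell, with summed signals of 997 to 1971 and 2776 to 2935. No marker was listed at 0. Whether the makeup of the cultures has a part in the forkhead differences was not tested, and in bulk RNA fewer cells of a type and less RNA per cell cannot be told apart.

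Foxd2, a forkhead gene of kidney and facial mesenchyme, rose by a smaller amount. Its 1 probe set had log2 signals of 13.17 on the array with no clone named, 12.55 in clone I, 12.97 and 12.47 in clone II, and 11.60 and 11.51 in parental cells. The parental arrays were nearly equal, and the lowest GLI1 array, replicate 2 of clone II, was still clearly above them. The mean rose from 11.55 ± 0.07 (SD, n = 2) to 12.79 ± 0.34 (SD, n = 4), which is 2.36-fold (log2 1.24, SE 0.24, limma adjusted p = 0.0107). The difference stayed between 1.11 and 1.40 under the other settings. The call was lost without parental replicate 1 (limma adjusted p = 0.0905), without parental replicate 2 (0.0916) and without both arrays of high GAPDH ratio (0.158), each of which leaves a single parental array. Without parental replicate 1 or 2 the log2 difference itself was 1.29 and 1.19, and its SE rose to 0.33 in both.

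Of the called members only Foxd2 has a promoter in the RefSeq table of GRCr8 promoters, which holds 3 of the 8 genes. The 250 bases before its start are printed with those of Foxo1, a member that did not pass, with the CpG dinucleotides, the sites of DNA methylation in mammals, in capitals. Both run 5′ to 3′ on the strand of the gene.

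Foxd2, chr5:133667484-133667733, minus strand: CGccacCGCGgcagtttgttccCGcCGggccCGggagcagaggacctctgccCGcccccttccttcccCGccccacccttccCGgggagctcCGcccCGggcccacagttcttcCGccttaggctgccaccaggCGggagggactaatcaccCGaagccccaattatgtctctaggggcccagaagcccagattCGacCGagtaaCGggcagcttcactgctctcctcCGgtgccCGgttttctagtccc
Foxo1, chr2:138462724-138462973, plus strand: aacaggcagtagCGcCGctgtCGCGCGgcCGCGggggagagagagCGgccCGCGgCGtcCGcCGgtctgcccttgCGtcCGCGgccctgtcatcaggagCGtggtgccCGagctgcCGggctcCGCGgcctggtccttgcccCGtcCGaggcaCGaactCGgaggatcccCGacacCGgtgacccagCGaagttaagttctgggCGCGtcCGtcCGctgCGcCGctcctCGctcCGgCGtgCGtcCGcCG
The Foxd2 window held 19 CpG dinucleotides and 67.6% G and C, and the Foxo1 window 40 and 74.4%. The median of the 33469 promoters in the table was 5 CpG and 51.2%, and 18.4% of them had at least as many CpG as Foxd2 and 1.16% at least as many as Foxo1. The GLI motif GACCACCCA and the forkhead motif TGTTTAC, searched on both strands, were in neither window, nor in that of Foxd1; 0.338% and 3.21% of all promoters hold them. With 1 mismatch allowed, the GLI motif was again in none of the 3, and in 6.15% of all promoters. The windows are short, and no match says only that these letters are not in them.

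The nearest tested neighbours of Foxd2 on chromosome 5 did not pass. They were Trabd2b, a gene of a Wnt-cleaving protease, at 0.68 on the log2 scale (limma adjusted p = 0.263), the lens forkhead gene Foxe3 at -0.84 (0.175), the nucleotide kinase gene Cmpk1 at -0.17 (0.567) and the centriole gene Stil at 0.51 (0.206).

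Foxm1, the forkhead factor of dividing cells, rose least of the 3 called genes. Its brighter probe set (1369018_at) had log2 signals of 11.98 on the array with no clone named, 12.43 in clone I, 12.04 and 12.25 in clone II, and 11.30 and 11.41 in parental cells. The groups did not overlap, and clone I was the highest array. The mean was 12.18 ± 0.21 (SD, n = 4) against 11.36 ± 0.08 (SD, n = 2), a 1.77-fold rise (log2 0.82, SE 0.20, limma adjusted p = 0.0299). The other tested probe set of the gene (1398470_at) read 9.75 to 10.12 in GLI1 arrays and 9.84 to 10.03 in parental ones. It showed no such separation, with a log2 difference of 0.02 (SE 0.26, 95% interval -0.56 to 0.60, limma adjusted p = 0.972), an interval that ends below the 0.82 of the brighter probe set.

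The Foxm1 call was the least stable of the 3. The difference itself stayed between 0.74 and 0.98, but the limma adjusted p was 0.214 without parental replicate 1 (log2 0.77, SE 0.28), 0.132 without parental replicate 2 (log2 0.88, SE 0.28), 0.0745 without clone I, 0.0618 without replicate 2 of clone II, 0.262 without both arrays of high GAPDH ratio and 0.0532 without the intensity trend.

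**Figure D2:**
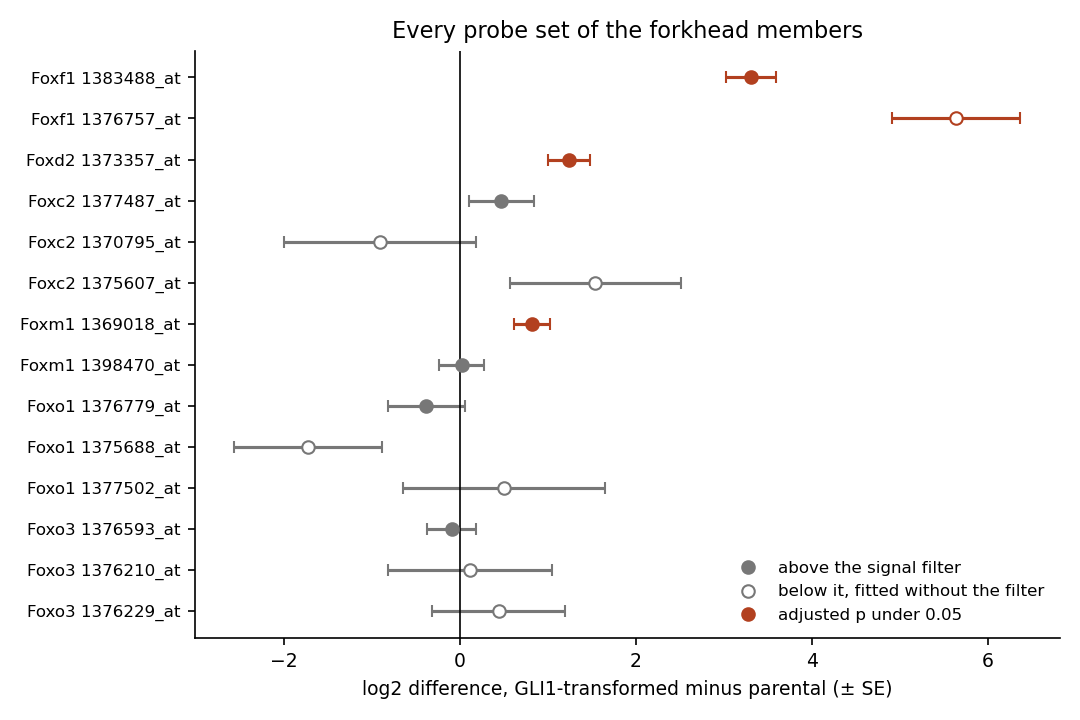
Log2 difference (GLI1-transformed minus parental, with its SE) of all 14 probe sets of the members; filled points passed the signal filter, open points are below it and come from the fit without the filter, and red points have an adjusted p under 0.05. Both Foxf1 probe sets are far to the right of 0, the Foxm1 probe sets differ from each other (0.82 and 0.02), and the dim probe sets have wide errors.

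Of the mitotic genes that FOXM1 is known to drive, 24 of 28 were on the array and all 24 were tested: 7 rose, 0 fell and 17 did not pass, against 7.8% of all genes rising. Their median log2 difference was 0.57, and in 12 of the 24 all GLI1 arrays lay above both parental ones, as in 23.4% of all genes. Cdc25b, the phosphatase that starts mitosis by activating Cdk1, rose by 1.36 (SE 0.25, limma adjusted p = 0.00883). Aurkb, the kinase of the chromosomal passenger complex, rose by 1.31 (SE 0.22, 0.00648), from 12.48 ± 0.18 (SD, n = 2) to 13.79 ± 0.31 (SD, n = 4). Ube2c, the ubiquitin-conjugating enzyme of the anaphase-promoting complex, rose by 0.92 (SE 0.17, 0.00938) and the checkpoint kinase Bub1 by 0.82 (SE 0.16, 0.0130). The other 3 were the kinase Melk at 0.82, topoisomerase Top2a at 0.77 and the kinetochore protein Cenpf at 0.57. The 17 others ranged from -0.31 for Cenpe, a kinetochore motor, to 0.97 for the spindle kinase Aurka (limma adjusted p = 0.0613). The proliferation marker Mki67 differed by 0.09 (limma adjusted p = 0.740) and Plk1, a classic FOXM1 target, by 0.25 (0.591). The count moved with the arrays and the fit. In fits that leave a single parental array, calls over all probe sets dropped steeply too. Without parental replicate 1, or without both arrays of high GAPDH ratio, 0 of the 24 passed, and without parental replicate 2, 3 did. It was 4 without clone I, 4 without replicate 2 of clone II, 4 without the intensity trend and 10 without the array of no named clone, while the median stayed between 0.46 and 0.73 in all settings.

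Rhno1, next to Foxm1 on chromosome 4, encodes a protein of the checkpoint response to replication stress, and the pair is known to lie head to head. It was the 1 gene that rose among the 25 neighbours tested, where 7.8% of all genes rose, by 0.73 on the log2 scale (SE 0.20, limma adjusted p = 0.0429), from a mean of 11.74 to 12.47. It lost its call in 9 of 15 other settings, with a highest adjusted p of 0.242 in limma. Tulp3 and Tead4 on the same side differed by 0.08 and 0.07, and Nrip2 and Itfg2 on the other by 0.01 and 0.30, none of them called in limma (adjusted p = 0.641 to 0.987).

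Foxo1, the FOXO factor of insulin signalling in liver, did not pass. Its brightest probe set had log2 signals of 11.22 on the array with no clone named, 9.60 in clone I, 10.26 and 10.66 in clone II, and 11.26 and 10.37 in parental cells. The array with no clone named was nearly as high as the higher parental array, and clone I was the lowest of all. The log2 difference was -0.38 (SE 0.44, 95% interval -1.38 to 0.61, limma adjusted p = 0.618), and it changed sign without parental replicate 1. A fainter probe set (1375688_at) was lower on every GLI1 array, at signals of 21.0 to 68.8 against 87.0 and 163, with a log2 difference of -1.72 that did not pass without the filter (limma adjusted p = 0.284). The other faint probe set differed by 0.50 (limma adjusted p = 0.869).

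Foxo3, the FOXO factor best known for its part in quiescence and long life, differed least. Its brightest probe set had log2 signals of 12.85 on the array with no clone named, 11.91 in clone I, 12.18 and 11.93 in clone II, and 12.23 and 12.38 in parental cells. The parental arrays lay inside the range of the GLI1 arrays. The log2 difference was -0.09 (SE 0.28, 95% interval -0.72 to 0.54, limma adjusted p = 0.868), and the 2 fainter probe sets differed by 0.12 and 0.44 (limma adjusted p = 0.964 and 0.815 without the filter).

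FOXO activity is set by phosphorylation and location, which the arrays do not measure. Of the genes known to be switched on by FOXO factors, 23 of 28 on the array were tested. In this list 3 rose, 3 fell and 17 did not pass, beside 7.8% risen and 7.75% fallen among all genes. The median log2 difference was -0.08. Pdk4, a kinase that turns cells from glucose to fat as fuel, fell by 2.23 (SE 0.46, limma adjusted p = 0.0149). Its GLI1 mean of 8.21 lay below the filter, so it was tested only through its parental arrays. Cited2, which competes for the coactivators CBP and p300, fell by 1.56 (SE 0.27, 0.00763), and Rbl2, the pocket protein p130 of quiescent cells, by 1.16 (SE 0.24, 0.0164). Bbc3, the cell death gene that encodes PUMA, rose by 1.07 (SE 0.20, 0.00896), Eif4ebp1, a brake on translation, by 1.37 (SE 0.31, 0.0216), and Klf15 by 1.27 (SE 0.36, 0.0485). Another tested probe set of Pdk4 differed by 0.51 and was not called (limma adjusted p = 0.612). Without either parental array, 0 of the 23 passed, and with median centring the list's median changed sign, to 0.08.

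Upstream of the FOXO factors, 16 genes of the PI3K and AKT pathway and of FOXO turnover were tested. Here 0 rose, 1 fell and 15 did not pass, beside 7.8% risen and 7.75% fallen among all genes. The median log2 difference was 0.02. The 1 that fell was Sgk1, a kinase related to AKT that also phosphorylates FOXO3, from 11.92 ± 0.36 (SD, n = 2) to 10.78 ± 0.24 (SD, n = 4), a fall by 1.15 on the log2 scale (SE 0.25, limma adjusted p = 0.0189). Its call was lost without parental replicate 1 (limma adjusted p = 0.213), without parental replicate 2 (0.0596) and with median centring (0.0551). On chromosome 2, of the neighbours of Foxo1, Mgst2, a glutathione transferase of membranes, fell by 3.09 (SE 0.41, limma adjusted p = 0.00212) and Lhfpl6, a membrane protein gene, by 2.18 (SE 0.52, 0.0275), while Cog6, between Foxo1 and Lhfpl6, differed by -0.12 (0.696). Those were the 2 neighbours of 25 that fell, a share close to the 7.75% of all genes that fell. Lhfpl6 lost its call in 5 of 15 other settings, for example without parental replicate 1 (limma adjusted p = 0.198) or parental replicate 2 (0.128). Near Foxo3, the stress gene Sesn1 differed by -0.32 (limma adjusted p = 0.312) and none of the tested neighbours passed.

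**Figure D3:**
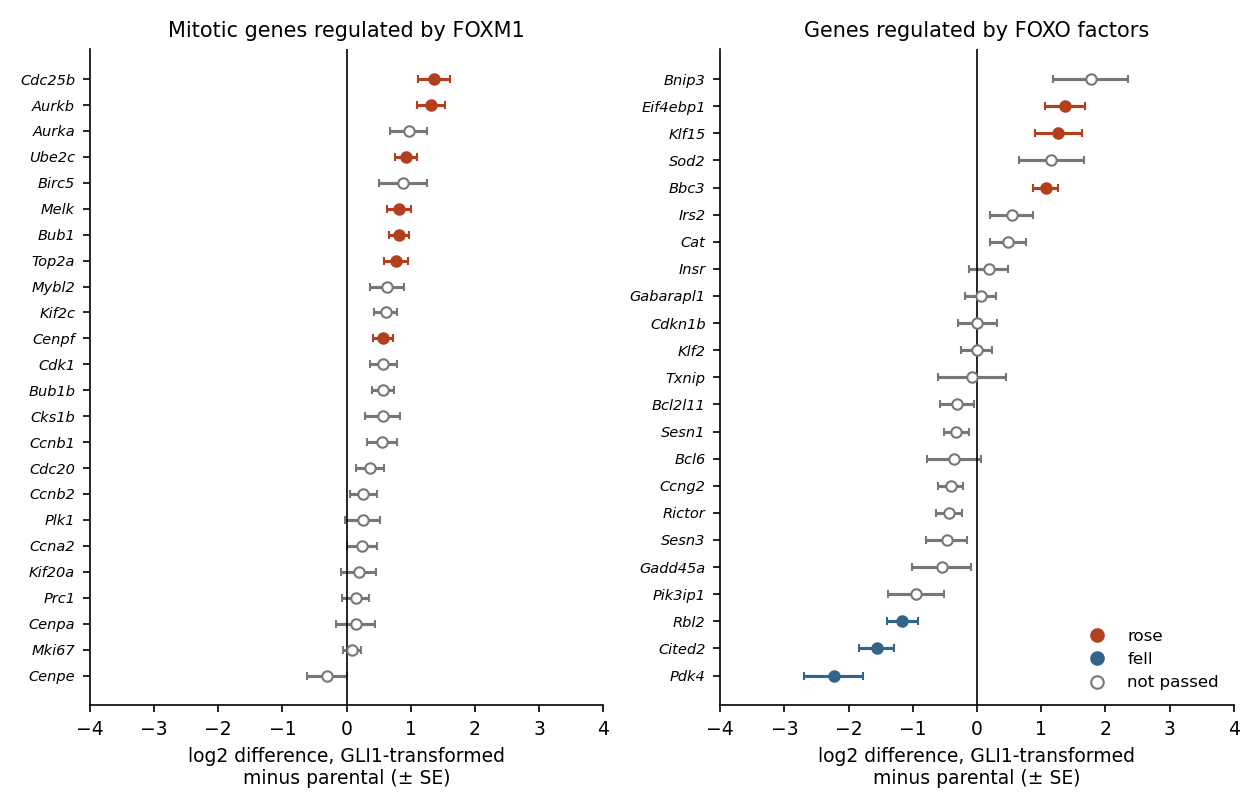
Log2 difference (GLI1-transformed minus parental, with its SE; 4 and 2 arrays) of the tested genes of the FOXM1 list, left, and of the FOXO list, right; red rose, blue fell and open points did not pass. In the FOXM1 list 7 of 24 rose and 0 fell, and in the FOXO list 3 of 23 rose and 3 fell.

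Foxd1, the factor of the cortical stroma of the developing kidney, was not measured. The genes listed beside it include stromal genes and nephron progenitor genes such as Eya1. Of 15 on the array, 9 were tested. Of these 1 rose, 5 fell and 3 did not pass, with a median log2 difference of -1.33, and 7.75% of all genes fell. The filter, on the mean of the 6 arrays, left out some genes bright in parental cells only. They include Postn, with mean log2 signals of 3.18 in GLI1 arrays and 14.85 in parental cells, and Tnc, with 6.47 and 11.03. Without the filter 1 of the 15 rose and 7 fell. Ntn1, the guidance cue netrin-1, which the stroma secretes, rose by 4.06 (SE 0.21, limma adjusted p = 1.83e-05) in its brighter probe set and differed by 0.59 in another (0.496). The homeobox genes Meis1 and Meis2, which mark kidney stroma, fell by 1.81 (SE 0.23, 0.00156) and 1.57 (SE 0.20, 0.00164). Eya1, a factor of nephron progenitors, fell by 2.63 (SE 0.36, 0.00225), Aldh1a2, which makes retinoic acid in the stroma, by 3.23 (SE 0.51, 0.00484), and Rarb, a retinoic acid receptor, by 1.33 (SE 0.30, 0.0232). The GLI1 mean of Aldh1a2, 7.94, lay below the filter, so it was tested only through its parental arrays and its fall rests on faint signals. Without parental replicate 1 or parental replicate 2, 3 of the 9 fell, and without both arrays of high GAPDH ratio 1 did. The neighbours of Foxd1 that were tested, Utp15, Ankra2, Tmem171 and Fcho2, differed by -0.21 to 0.42 and none was called in limma (adjusted p = 0.374 to 0.934).

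In a partial list of Hedgehog pathway genes, 13 of 17 on the array were tested. Of these 2 rose, 0 fell and 11 did not pass, where 7.8% of all genes rose and 7.75% fell. Beside Gli1 the 1 that rose was Hhip, the membrane protein that binds and removes Hedgehog ligands and is itself a Hedgehog target. It read 2658 on the array of no named clone, 1711 in clone I, 1732 and 2378 in clone II, and 205 and 144 in parental cells. All GLI1 arrays were well above the parental ones, by 3.60 on the log2 scale (SE 0.31, limma adjusted p = 0.000279). Its parental mean of 7.43 lay below the filter, so Hhip, like Gli1, was tested only through its GLI1 arrays. The cells were also transformed by GLI1 itself. The 2 of 13 therefore cannot be read against the share of all genes. With the 60th percentile filter both were left out, 7 genes of the list were tested and 0 rose.

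The other forkhead genes on the array numbered 24, of which 15 were tested. Of these 2 rose, 3 fell and 10 did not pass, beside 7.8% risen and 7.75% fallen among all genes. Their median log2 difference was -0.29. Foxa2, the forkhead factor of endoderm and of the floor plate, where it is a known Hedgehog target, rose from 11.13 ± 0.01 (SD, n = 2) to 13.63 ± 0.27 (SD, n = 4), by 2.49 (SE 0.21, limma adjusted p = 0.000213). Foxc1, the close relative of Foxc2, fell from 13.51 ± 0.45 (SD, n = 2) to 10.40 ± 0.19 (SD, n = 4), by 3.11 (SE 0.24, 0.000168). Foxp1, a repressor, fell by 1.62 (SE 0.20, 0.00161), and its 3 other tested probe sets also fell, by 1.26 to 1.90. Foxk2 rose by 0.73 (SE 0.18, 0.0275), with 2 other tested probe sets that did not pass, and Foxp4 fell by 1.06 (SE 0.28, 0.0376). Foxa2 and Foxc1 kept their calls in all 15 other settings; those of Foxk2 and Foxp4 were lost when any 1 of several arrays was left out, either parental array among them. Foxo4, the FOXO gene beside the 2 members, differed by 0.01 (limma adjusted p = 0.981).

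**Figure D4:**
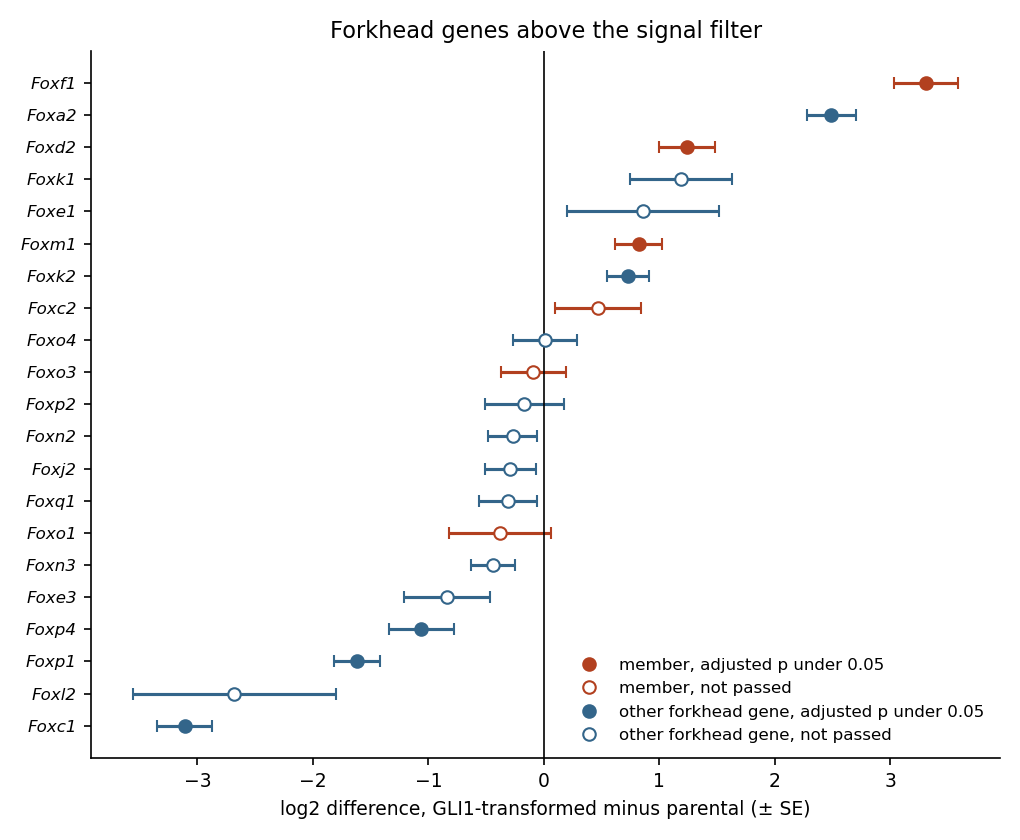
Log2 difference (GLI1-transformed minus parental, with its SE; 4 and 2 arrays) of the 21 forkhead genes above the signal filter, with the 6 members in red and the 15 others in blue, and filled points for an adjusted p under 0.05. Foxf1 is highest, followed by Foxa2 and Foxd2, and Foxc1 is lowest.

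Between lines, no member differed past the threshold, with 2 arrays a side. Foxf1 was 11.5-fold higher in clone II than in parental cells (log2 3.52, SE 0.30, limma adjusted p = 0.000467) and 8.62-fold higher in the other GLI1 arrays (log2 3.11, 0.000711). Foxd2 rose by 1.17 in clone II (0.0343) and by 1.31 in the others (0.0188). Foxm1 differed by 0.79 in clone II and 0.85 in the others, neither of them past the threshold in limma (adjusted p = 0.0756 and 0.0519). In each of these comparisons 2 of the 6 genes were called, where 11.7% of all genes were called for clone II and 14.8% for the others; both share the parental arrays. Clone II set directly against the other GLI1 arrays gave 0 calls among the 6, at a background of 0.176%. There the log2 difference was 0.41 for Foxf1 (95% interval -0.28 to 1.10), -0.14 for Foxd2 (-0.77 to 0.49), -0.06 for Foxm1 (-0.60 to 0.49), and -0.33 for Foxo3 (-1.04 to 0.38), and the smallest limma adjusted p of the 6 was 0.764. Some of the cell type markers did separate the lines: clone II was lower than the other GLI1 arrays in Krt8, by a log2 difference of -3.17 (limma adjusted p = 0.0157), and higher in Ogn, by 3.98 (0.00177). The mean of Ogn in the other GLI1 arrays lay below the filter. It was tested through its clone II and parental arrays, and the 3.98 rests on faint signals. The intervals of the forkhead genes leave room for differences between lines of up to about a doubling for Foxf1. Those of Foxo1 (-1.15 to 1.26) and Foxc2 (-1.23 to 0.84) reach further.

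For each called member, the genes of most similar profile over the 6 arrays were taken by Pearson's r, as a description. All 6 arrays enter each r, so the gap between the groups carries most of it. For Foxf1 they were the pseudogene Srsf7-ps4 (r = 0.998), the actin-binding gene Enc1 (0.996), the ribosome biogenesis gene Wdr75 (0.995) and the ubiquitin ligase gene Rnf220 (0.994), and 263 of 10234 genes had r above 0.95. For Foxd2 they were the phosphatase gene Mtm1 (0.996), Ubxn11 (0.994), Tmem138 (0.992) and the amino acid transporter gene Slc7a1 (0.991), with 202 genes above 0.95. For Foxm1 they were the centrosome gene Cntrl (0.998), Avl9 (0.992), the splicing gene Rnps1 (0.991) and Pigq (0.991), with 159 above 0.95. None of the 12 is on the FOXM1 or Hedgehog lists.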

How the data were processed

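The deposited values were linear intensity values from MAS5, as named in the submitters' processing notes, with 1 value for each probe set on each array; version and genome build are not given in the sources used here. MAS5 scales each array to a common mean, and detection calls were not used. Analysis used log2 of the signal, with 1 as the lowest signal. After 57 control probe sets were left out, the 18625 with a mean log2 above the 40th percentile (8.33, or a signal of 322) entered limma 3.58.1 in R 4.3.3 (lmFit, eBayes with an intensity trend, two-sided). The comparison of 2 groups had 4 residual degrees of freedom, and a model with clone II, the other GLI1 arrays and parental cells had 3. SDs are between arrays. The procedure was tested on simulated data.

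Names came from a probe set table (20826 probe sets with 1 symbol, 436 with several, 9780 with none). Named genes were all members, called forkhead genes, up to 4 called genes of smallest p per list and 2 of the other direction, 4 genes of similar profile and called neighbours up to 3 genes away; others named were chosen after their values were seen. Members and lists were chosen with earlier results of these data known. Alternatives covered scaling, filter, offset, trend, probe set, clone averaging, replicate block and left-out arrays. The value with 32 added was extended to dim probe sets after the data were seen.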

Additional observations from a re-analysis of the deposited data

Results flagged for a closer look

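One dim probe set of Foxo3 (1376210_at) had a GLI1 array far from the other 3: replicate 1 of clone II read 4.69 on the log2 scale, against 6.67 for the nearest and 6.99 for the highest. The gap was 0.861 of the range, above Dixon's critical value for 4 arrays, in 1 of 14 probe sets examined; chance flags about 1 in 20 such groups. The same array had the highest GAPDH 3' to 5' ratio, 7.52, and the part of that in the value was not tested. The brightest Foxo3 probe set read 12.18 on it, inside the range of the other GLI1 arrays.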

How the results depend on the processing

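The replicate numbers of the labels were not taken as pairs, since not every correlation was over 0.1: that of deviations from the group means with the parental array of the same number was -0.026, 0.157, 0.321 and 0.158 for the 4 GLI1 arrays. With the replicate block 1190 probe sets rose and 1437 fell, and the same number of members, 3, rose; Cenpf (limma adjusted p = 0.0536) and Ogn (0.0586) were not called. Probe sets risen and fallen in the comparison of 2 groups were 1087 and 1351, and 145 and 167 without both arrays of high GAPDH ratio; 705 rose without the intensity trend. Leaving out 1 array gave 228 to 1377 risen and 282 to 1653 fallen, lowest without parental replicate 1. Members risen went from 3 to 1 without both arrays of high GAPDH ratio and ranged from 1 to 3 with 1 array left out. Without the trend, 361 probe sets rose in clone II and 638 in the other GLI1 arrays, with 1 member risen in each; in clone II set against the other GLI1 arrays 1 fell. There, 11 rose with median centring, 7 fell with quantile normalization, 8 fell without the filter, and 1 rose and 3 fell with the 60th percentile filter. Signs changed for Foxo3 (0.07 with median centring; -0.30 to 0.01 with 1 array left out; 0.12 and 0.44 in its other probe sets), Foxo1 (0.12 without both arrays of high GAPDH ratio; -0.83 to 0.06 with 1 array left out; 0.50 in 1377502_at), Foxc2 (-0.91 in 1370795_at) and the clone difference of Foxm1 (0.07 with median centring), none of them called; the cause was not tested. Faint probe sets have only weak signal over background, and 6 arrays limit the precision.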
